A study of Saccharomyces cerevisiae with 6 samples.

Results

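The genes described here encode the subunits of the nuclear RNA polymerases I, II and III (Pol I, Pol II and Pol III) of budding yeast. All 31 subunit genes on the list were found by gene symbol among the 7126 genes of the count table, and all 31 were among the 6330 genes with enough reads to be tested. RNA came from BY4741, a wild-type haploid laboratory strain, cultured overnight in synthetic complete (SC) medium with glucose or with glycerol as the carbon source, with 3 biological replicates of each. Both groups share the strain and its auxotrophic deletions, and no counts fell on LEU2, URA3 or MET17 in any library, while HIS3 kept 37.1 to 82 normalized counts per 1000000 on average. Poly(A) RNA was sequenced without strand information, so the transcripts measured are the mRNAs of the subunits and not the rRNAs and tRNAs that Pol I and Pol III make.

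Pol I transcribes the large rRNA precursor, Pol II the mRNAs, and Pol III the tRNAs and the smallest rRNA. Each enzyme is built around a largest and a second largest subunit that together form the active center. A set of 5 small subunits is common to the 3 enzymes, and a pair of assembly subunits, AC40 and AC19, is common to Pol I and Pol III. In rapidly growing yeast, most transcription serves ribosome production, and many genes for Pol I and Pol III subunits belong to the ribosome biogenesis regulon. The PAC element, named after polymerases A and C, the older names of Pol I and Pol III, was recognized in the promoters of such genes, and the RRPE element often accompanies it. The members were sorted into 7 genes specific to Pol I, 7 specific to Pol II, 10 specific to Pol III, 5 shared by all and 2 shared by Pol I and Pol III.

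The libraries held between 15289163 and 20038052 counts on genes, and a member received between 266 counts, for RPC17, and 9214 in a library. Cytosolic ribosomal protein genes took 25 to 28.4% of the counts in glucose and 5.73 to 6.79% in glycerol, and edgeR's TMM factors, which correct for such a difference in composition, were 0.829 to 0.865 in the glucose group and 1.18 to 1.2 in the glycerol group. Values below are normalized counts per 1000000 (CPM), with each library total multiplied by its TMM factor beforehand, and fold changes are glycerol over glucose. Over all genes tested, the log2 fold change had a median of 0.03 under TMM and of 0.52 when library totals alone were used, so fold changes are relative to the rest of the transcriptome, and a change in RNA per cell cannot be told apart from them. As a check of the carbon source, the glycerol kinase transcript GUT1 rose from 55.5 ± 6.03 to 488 ± 35.4 CPM (SD, n = 3 in each group), and GUT2, which encodes the mitochondrial glycerol phosphate dehydrogenase, stood at 37.8 ± 5.19 and 607 ± 27.6 CPM. The glucose transporter transcripts HXT1 and HXT3 fell, HXT1 from 479.7 ± 26 to 12.3 ± 1.31 CPM, and HXT3 from 2348 ± 284 to 26.9 ± 2.91 CPM (SD, n = 3 in each group).

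The sequence before each gene was searched for these elements. The letters GATGAG, the core of PAC, were searched on both strands from 250 bases before to 50 bases after each gene start in the R64 genome of RefSeq. They were present for 6 of 7 Pol I genes, 8 of 10 Pol III genes and both genes shared by Pol I and Pol III, but for 1 of 7 Pol II genes and 0 of 5 genes shared by all. Of the windows of all 6149 protein-coding genes tested, 19.8% held GATGAG. The following sites are printed because they show the element and its surroundings in genes of Pol I, Pol III and both. Each runs 5′ to 3′ on the strand of the gene, with GATGAG or its reverse complement CTCATC in capitals.
RPA49 (chrXIV:182717-182754, minus strand): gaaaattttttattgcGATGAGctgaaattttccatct
RPC40 (chrXVI:746897-746934, minus strand): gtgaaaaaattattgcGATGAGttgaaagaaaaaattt
RPC19 (chrXIV:412628-412665, plus strand): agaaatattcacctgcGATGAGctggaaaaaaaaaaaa
RPA34 (chrX:140311-140348, plus strand): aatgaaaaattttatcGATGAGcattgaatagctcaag
RET1 (chrXV:733565-733602, minus strand): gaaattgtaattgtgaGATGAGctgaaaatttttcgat
RPA190 (chrXV:960799-960836, plus strand): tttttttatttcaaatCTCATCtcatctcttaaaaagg
RPA135 (chrXVI:581284-581321, minus strand): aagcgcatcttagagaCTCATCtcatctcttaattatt
RPC82 (chrXVI:919142-919179, minus strand): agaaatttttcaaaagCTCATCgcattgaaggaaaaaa
RPC25 (chrXI:176654-176691, minus strand): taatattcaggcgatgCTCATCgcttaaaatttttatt
RPC31 (chrXIV:348583-348620, minus strand): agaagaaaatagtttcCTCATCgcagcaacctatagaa
RPA14 (chrIV:769450-769487, plus strand): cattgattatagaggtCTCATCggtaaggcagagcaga

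The sites of RPA190 and RPA135, the genes of the largest and the second largest subunit of Pol I, each hold the element again 5 bases further on, overlapping the first match by 1 base. The longer form GCGATGAG, read on either strand, was present for 6 members, namely RPA49, RPC40, RPC19, RPC82, RPC25 and RPC31, and in 3.85% of all windows. The only match of RPB2 lies 33 bases into its coding region, 1 match each of RPA135 and RPC37 includes the start codon, and both matches of RPC53 lie within the neighboring open reading frame YDL152W. With the search kept to the 250 bases before the start, 16 of 31 members held GATGAG, as did 16.5% of all windows.

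The RRPE core, searched as AAAATTTT, which is its own reverse complement, was found for 6 of 7 Pol I genes, 5 of 10 Pol III genes, 2 of 7 Pol II genes, 2 of 5 genes shared by all and 1 of the 2 genes shared by Pol I and Pol III, against 8.75% of all windows. A longer form, TGAAAAATT on either strand, was present for 10 of 31 members, against 6.23% of all windows. It was found for 4 of 7 Pol I, 3 of 10 Pol III and 1 of 7 Pol II genes. Of the genes shared by all 2 of 5 held it, and of those shared by Pol I and Pol III 0 of 2. Both cores occurred together before 12 members, none of them specific to Pol II or shared by all, and before 4.24% of all genes. Their first bases lay between 9 bases apart, in RET1, and 97 bases apart, in RPC82. The 250 bases before 3 genes are printed because they represent the strongest decrease of a member, the only increase among Pol I genes and a strong decrease with neither core, with both cores in capitals.
RPA34 (chrX:140187-140436, plus strand): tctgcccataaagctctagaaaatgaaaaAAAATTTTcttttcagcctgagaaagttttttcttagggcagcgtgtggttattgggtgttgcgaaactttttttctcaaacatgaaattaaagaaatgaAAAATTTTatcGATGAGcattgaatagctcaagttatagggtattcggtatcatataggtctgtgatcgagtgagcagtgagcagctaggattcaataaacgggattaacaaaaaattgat
RPA14 (chrIV:769275-769524, plus strand): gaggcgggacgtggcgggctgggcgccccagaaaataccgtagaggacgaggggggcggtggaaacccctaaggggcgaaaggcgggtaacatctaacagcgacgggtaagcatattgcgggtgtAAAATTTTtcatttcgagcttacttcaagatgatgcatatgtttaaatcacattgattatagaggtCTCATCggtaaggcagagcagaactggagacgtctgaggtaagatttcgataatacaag
RPC11 (chrIV:548311-548560, minus strand): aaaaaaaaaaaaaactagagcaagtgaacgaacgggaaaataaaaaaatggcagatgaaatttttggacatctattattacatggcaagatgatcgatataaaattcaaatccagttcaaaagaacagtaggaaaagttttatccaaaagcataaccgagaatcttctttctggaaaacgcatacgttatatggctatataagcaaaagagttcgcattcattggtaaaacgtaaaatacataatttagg

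Most subunit transcripts were lower in glycerol than in glucose. By the quasi-likelihood test of edgeR (Benjamini-Hochberg adjusted p under 0.05, over every gene tested), 25 of 31 members (80.6%) fell, 3 rose and 3 did not pass, whereas of all 6330 tested genes 40.1% fell and 41.7% rose (81.8% in all). A decrease of 1 or more on the log2 scale was found for 19 members, against 21.4% of all tested genes, and a decrease of 2 or more for 9 members, against 6.51%. The median log2 fold change of the members was -1.35, a difference of -1.38 from that of all genes. Every glycerol library lay below every glucose library for 26 members, where 40.8% of all tested genes showed this, and above for 4, where 43.0% did. The remaining member is RPO31, whose groups overlapped.

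**Figure D1:**
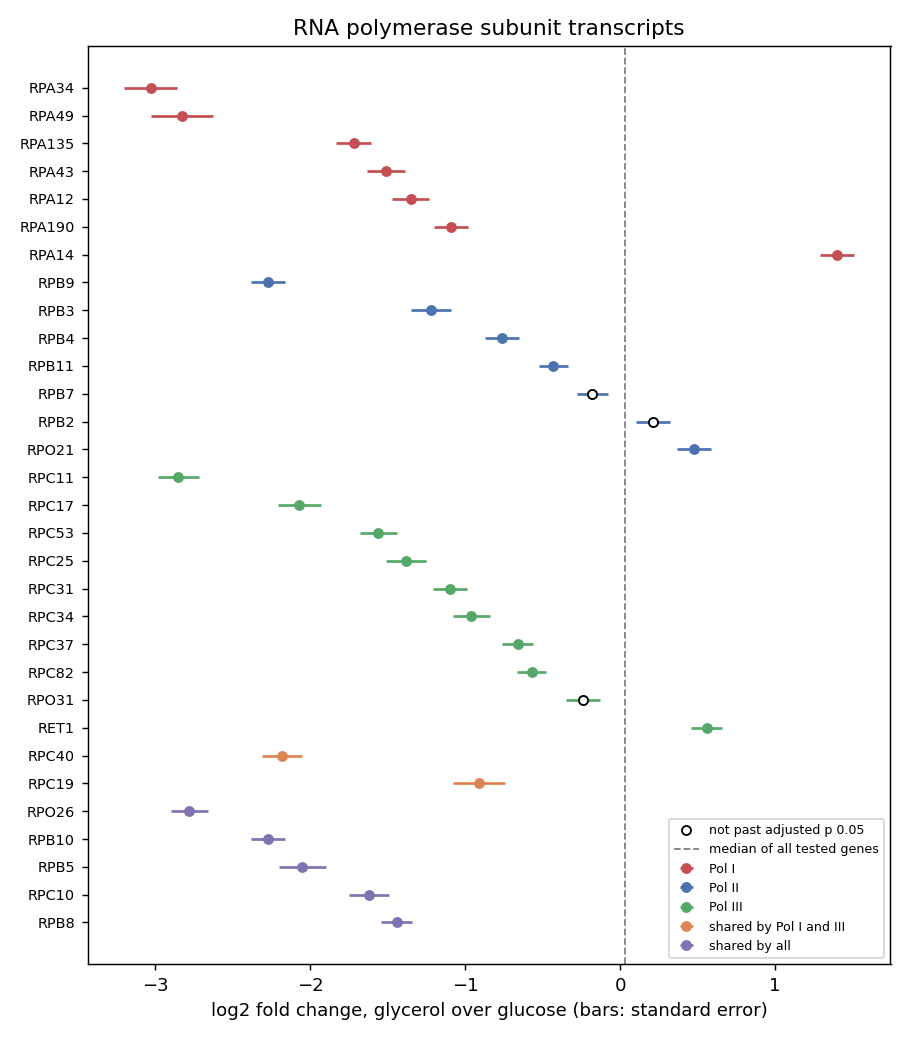
The log2 fold change of each of the 31 subunit transcripts, glycerol over glucose, on the x axis with its standard error, grouped by enzyme; open symbols did not pass an adjusted p of 0.05 and the dashed line is the median of all tested genes. The 5 subunits shared by all lie between -2.78 and -1.44, the Pol II-specific subunits between -2.27 and 0.48, and RPA14 stands alone on the right at 1.40.

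The classes differed in their medians. Subunits shared by all 3 enzymes had a median log2 fold change of -2.05, those specific to Pol I of -1.51, those specific to Pol III of -1.03 and those specific to Pol II of -0.43, the last of which turned to 0.06 with library totals alone while the others stayed below 0, at -1.55, -1.02 and -0.53. The count of falls was 5 of 5 for the subunits shared by all, 6 of 7 for Pol I, 8 of 10 for Pol III, 4 of 7 for Pol II and 2 of 2 for AC40 and AC19, against 40.1% of all tested genes. With library totals alone, the counts were 5 of 5, 6 of 7, 6 of 10, 3 of 7 and 2 of 2, against 26.1%. Under that scaling 3 of the 7 Pol II transcripts rose, against 57.0% of all tested genes. Summed over a class, the Pol I-specific transcripts stood at 2029, 1883 and 1756 CPM in the glucose libraries and at 612, 534 and 504 CPM in the glycerol libraries. The Pol II-specific transcripts summed to 1260, 1211 and 1183 CPM in glucose and to 1074, 1031 and 1055 CPM in glycerol, and the Pol III-specific ones to 1027, 1002 and 915 CPM in glucose and to 677, 583 and 598 CPM in glycerol. In glucose the Pol I sum was the largest of the 3 in each library, and in glycerol it was the smallest in each. These sums mix genes of different lengths and are given as descriptions, with no test between the classes.

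**Figure D2:**
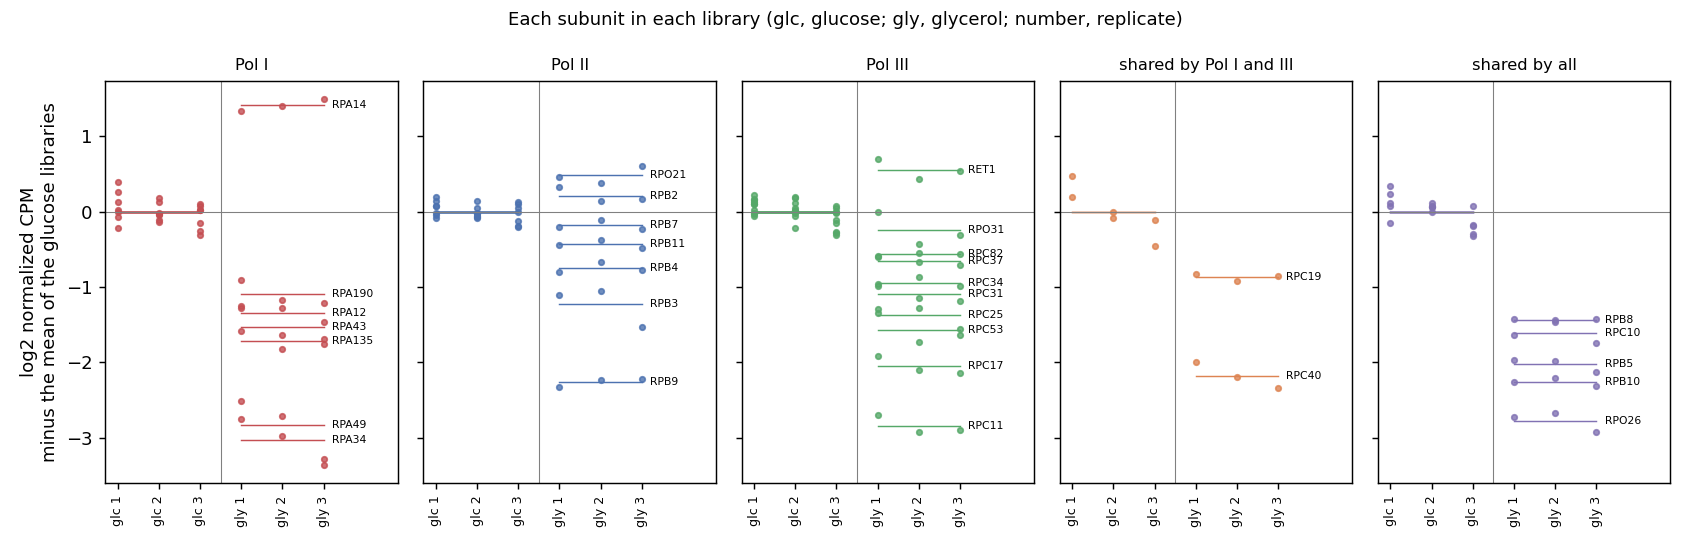
Each subunit in each of the 6 libraries, as the log2 normalized CPM minus the mean of its glucose libraries, in a panel per class with lines at the group means. The glycerol libraries of the subunits shared by all sit below their glucose libraries for all 5 genes, whereas the Pol II panel is spread over both sides of 0.

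Of the Pol I-specific subunits, the catalytic pair fell. RPA190 (YOR341W, chromosome XV from 960987 to 965981 of R64), which encodes the largest subunit A190, stood at 326, 312 and 326 CPM in glucose and at 171, 143 and 138 CPM in glycerol. The groups were well apart, and the log2 fold change was -1.09 (standard error, SE, 0.11, adjusted p = 2.0e-07 from edgeR). RPA135 (YPR010C, chromosome XVI from 577585 to 581196), which encodes the second largest subunit A135, stood at 494, 509 and 555 CPM in glucose and at 173, 146 and 154 CPM in glycerol. Its decrease was larger, with a log2 change of -1.72 (SE 0.11, edgeR, adjusted p = 1.3e-09). A190 and A135 are present in equal numbers in the enzyme, while per kilobase of gene the glucose level was 64.3 CPM for RPA190 and 144 CPM for RPA135, and the glycerol level 30.2 and 43.7 CPM.

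RPA34 and RPA49 encode a heterodimer that Pol I carries as a built-in counterpart of the Pol II initiation factor TFIIF. Their transcripts fell most among the Pol I subunits, and that of RPA34 had the lowest log2 fold change of all 31 members. RPA34 (YJL148W, chromosome X from 140437 to 141138) stood at 523, 541 and 383 CPM in glucose and at 70.4, 60.6 and 46.5 CPM in glycerol, which is a log2 change of -3.03 (SE 0.17, edgeR, adjusted p = 2.1e-10), or 8.16-fold lower. RPA49 (YNL248C, chromosome XIV from 181361 to 182608) stood at 477, 330.2 and 302 CPM in glucose and at 63.4, 55.2 and 37.2 CPM in glycerol, which is a log2 change of -2.83 (SE 0.20, edgeR, adjusted p = 2.7e-09). Both varied more between replicates than the catalytic pair did, and with any library left out their log2 fold changes lay between -3.17 and -2.85 for RPA34 and between -2.98 and -2.60 for RPA49. The promoters of both hold PAC and RRPE cores, whose nearest first bases lie 11 bases apart in RPA34 and 15 bases apart in RPA49.

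The stalk of Pol I, formed by A43 and A14, was split in its behavior. RPA43, whose product binds the initiation factor Rrn3, stood at 90.6, 89.2 and 92 CPM in glucose and at 38, 29.2 and 28.1 CPM in glycerol, which is a log2 change of -1.51 (SE 0.12, edgeR, adjusted p = 1.2e-08). RPA14 (YDR156W, chromosome IV from 769525 to 769938), its partner, stood at 21.6, 27.4 and 26.4 CPM in glucose and at 63.2, 66.1 and 70.3 CPM in glycerol. It was thus the only Pol I transcript that rose, with a log2 change of 1.40 (SE 0.11, edgeR, adjusted p = 1.7e-08), and the highest of all 31 members. It rose with each library left out, between 1.31 and 1.47, and under each scaling. A short overlap of 8 bases with the open reading frame YDR157W, which received between 5 and 157 counts, covers 1.93% of the RPA14 gene. RPA43 and RPA190 are neighbors transcribed away from each other, with 805 bases between their starts, and both fell.

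RPA12, which encodes the zinc-ribbon subunit needed for RNA cleavage by Pol I, stood at 96.9, 74.4 and 72.7 CPM in glucose and at 33.3, 33.1 and 29.3 CPM in glycerol. Its log2 fold change was -1.35 (standard error 0.12, adjusted p = 6.3e-08 from edgeR), with neither core in its window.

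The Pol II-specific subunits moved in different directions. RPO21 (YDL140C, chromosome IV from 205360 to 210561), which encodes the largest subunit Rpb1 with its repeated C-terminal domain, stood at 216, 225 and 245 CPM in glucose and at 315, 297 and 346 CPM in glycerol. The groups did not overlap, and the transcript rose by a log2 change of 0.48 (SE 0.11, edgeR, adjusted p = 6.7e-04). RPB2 (YOR151C, chromosome XV from 612997 to 616671), which encodes the second largest subunit, stood at 347, 315 and 329 CPM in glucose and at 413, 363 and 372 CPM in glycerol. Although its groups did not overlap, the log2 fold change of 0.21 (SE 0.11) did not pass the threshold (adjusted p = 0.075 from edgeR), and it did so with the replicate numbers as a block (adjusted p = 0.046 from edgeR), without glucose replicate 1, at 0.25 (adjusted p = 0.046 from edgeR), and with library totals alone, at 0.71.

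The largest decrease among Pol II-specific subunits was that of RPB9, which encodes the zinc-ribbon subunit that takes part in start-site selection and transcription fidelity. RPB9 (YGL070C, chromosome VII from 374459 to 374827) stood at 162, 169 and 133 CPM in glucose and at 30.6, 32.8 and 33 CPM in glycerol, which is a log2 change of -2.27 (SE 0.11, edgeR, adjusted p = 7.4e-11). RPB3, the larger of the assembly subunits that resemble the bacterial alpha subunit, went from 94 ± 11.1 to 40.4 ± 6.89 CPM (SD, n = 3 in each group), or -1.22 on the log2 scale. Antisense open reading frames cover 28.2% and 15.6% of RPB3 and received 0 counts and 12 to 36 counts. Whether reads in these overlaps were counted is not stated. The partner of RPB3, encoded by RPB11, changed less, from 83.8 ± 2.56 to 62.1 ± 2.42 CPM (SD, n = 3 in each group), or -0.43 on the log2 scale that became 0.06 with library totals alone. Among the stalk subunits, RPB4 fell from 246 ± 28.2 to 145 ± 7.31 CPM (SD, n = 3 in each group), or -0.76. on the log2 scale RPB7, the other stalk subunit, stood at 77.8, 76 and 88.3 CPM in glucose and at 70.1, 74.9 and 68.6 CPM in glycerol and did not pass the test (log2 fold change -0.18, adjusted p = 0.11 from edgeR), and with library totals alone it was higher in glycerol at 0.31 (adjusted p = 0.012).

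Among the Pol III-specific subunits, the catalytic pair had the highest log2 fold changes, with 1 transcript not past the threshold and the other higher in glycerol. RPO31 (YOR116C, chromosome XV from 539763 to 544145), which encodes the largest subunit C160, stood at 138, 134 and 135 CPM in glucose and at 135, 101 and 109 CPM in glycerol. Glycerol replicate 1 reached the level of the glucose libraries, and the log2 fold change of -0.24 (standard error 0.11) did not pass the threshold (adjusted p = 0.062 from edgeR). It passed with the replicate block (adjusted p = 0.023) and without glycerol replicate 1, at -0.35 (adjusted p = 0.012), and turned to 0.26 with library totals alone. RET1 (YOR207C, chromosome XV from 730008 to 733457), which encodes the second largest subunit C128, stood at 158, 154 and 168 CPM in glucose and at 259, 216 and 233 CPM in glycerol. It was the only Pol III transcript that rose, with a log2 change of 0.56 (SE 0.10, edgeR, adjusted p = 1.5e-04). The RET1 promoter holds both cores, with their first bases 9 bases apart.

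The other 8 Pol III-specific transcripts fell. RPC11 (YDR045C, chromosome IV from 547978 to 548310), whose product is the zinc-ribbon subunit for RNA cleavage and termination by Pol III, stood at 171, 182 and 131 CPM in glucose and at 24.6, 21 and 21.4 CPM in glycerol. Its log2 change of -2.85 (SE 0.13, edgeR, adjusted p = 3.8e-11), 7.22-fold lower, was the lowest of the class. The stalk subunit transcripts RPC17 and RPC25 fell by 2.07 and 1.38 on the log2 scale. Those of the heterodimer that resembles TFIIF, RPC53 and RPC37, fell by 1.56 and 0.66, and RPC53 went from 65.8 ± 1.73 to 22.3 ± 3.19 CPM (SD, n = 3 in each group). The antisense gene BUD30 covers 43.9% of RPC53 and received between 0 and 2 counts in a library, and whether reads in the overlap were counted is not stated. The subunits of the initiation trimer of Pol III, encoded by RPC82, RPC34 and RPC31, fell by 0.57, 0.96 and 1.10 on the log2 scale. With library totals alone, where 22 members fell against 26.1% of all tested genes and 5 rose against 57.0%, the values of RPC82 and RPC37 were -0.07 and -0.16 and no longer passed the test.

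The 5 subunits common to all 3 enzymes fell together, and for each of them the groups were far apart. RPO26 (YPR187W, chromosome XVI from 911257 to 911800), a gene with an intron that encodes Rpb6, stood at 598, 616 and 499.7 CPM in glucose and at 85.6, 89.5 and 74.8 CPM in glycerol. Its log2 change of -2.78 (SE 0.12, edgeR, adjusted p = 2.4e-11) was the lowest of this class. RPB10, which encodes a small zinc-binding subunit, stood at 315, 305 and 259 CPM in glucose and at 61, 63.2 and 58.5 CPM in glycerol, a log2 fold change of -2.27. RPB5, which encodes a subunit of the jaw that contacts downstream DNA, stood at 424, 335 and 268 CPM in glucose and at 85.8, 85.4 and 76.8 CPM in glycerol, a log2 fold change of -2.05. Its glucose libraries were spread more widely than its glycerol libraries. RPC10, which despite its name encodes the common subunit Rpb12, stood at 215, 191 and 149 CPM in glucose and at 58.9, 67.2 and 54.4 CPM in glycerol, a log2 fold change of -1.62. RPB8 changed least of the class, from 137, 161 and 161 CPM in glucose to 56.8, 55.5 and 56.9 CPM in glycerol, which is a log2 change of -1.44 (SE 0.10, edgeR, adjusted p = 3.3e-09). None of the promoters of these genes holds a PAC core, and 2 of them, those of RPB5 and RPO26, hold an RRPE core.

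The assembly subunits shared by Pol I and Pol III fell as well. RPC40 (YPR110C, chromosome XVI from 745828 to 746835), which encodes AC40, stood at 509.6, 417 and 412 CPM in glucose and at 111, 96.8 and 87.5 CPM in glycerol, which is a log2 change of -2.18 (SE 0.13, edgeR, adjusted p = 3.6e-10). RPC19 (YNL113W, chromosome XIV from 412771 to 413199), which encodes its partner AC19, stood at 105, 75.3 and 55 CPM in glucose and at 42.8, 40.1 and 41.9 CPM in glycerol. The glucose libraries of RPC19 were widely spread, although none reached the glycerol libraries, and its log2 change of -0.91 (SE 0.17, edgeR, adjusted p = 1.4e-04) moved to -0.64 without glucose replicate 1 (adjusted p at most 0.0019 with any library left out). The open reading frame YNL114C covers 66.4% of RPC19 on the opposite strand and received between 0 and 64 counts. Without strand, a read in the overlap cannot be assigned to either gene, and whether such reads were counted or left out is not stated.

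Corresponding subunits of the 3 enzymes can be compared position by position, because the polymerases share a common architecture. The log2 ratio of CPM per kilobase was taken between the subunits at a position in each library. For the largest subunit, RPA190 over RPO21 was 0.65, 0.53 and 0.47 in glucose and -0.82, -0.99 and -1.27 in glycerol. Thus the Pol I transcript exceeded its Pol II counterpart in each glucose library and lay below it in each glycerol library. For the second largest subunit, RPA135 over RPB2 was 0.54, 0.72 and 0.78 in glucose and -1.23, -1.29 and -1.25 in glycerol, the same reversal. RPA135 over its Pol III counterpart RET1 went from 1.58, 1.66 and 1.66 to -0.65, -0.63 and -0.66. Between Pol III and Pol II the catalytic positions went in opposite directions. RPO31 over RPO21 went from an average of -0.50 in glucose to -1.24 in glycerol, and RET1 over RPB2 from -0.95 to -0.61, both without overlap between the groups.

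At other positions the order of the enzymes differed. For the zinc-ribbon subunits, RPA12 over RPB9 went up, from an average of -0.97 to -0.05, since RPB9 fell more than RPA12. For the small stalk subunit, RPA14 over RPB4 went from an average of -2.61 to -0.44 and RPC17 over RPB4 from -1.59 to -2.89, so that the Pol I and Pol III counterparts moved in opposite directions against the Pol II subunit. The large stalk subunits RPA43 and RPC25 moved alike against RPB7, by -1.35 and -1.20. The ratio of RPC19 to RPB11 overlapped between the groups, as did that of RPA43 to RPC25. A ratio within a library does not depend on its scaling, and the ratios are given as values with no test.

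**Figure D3:**
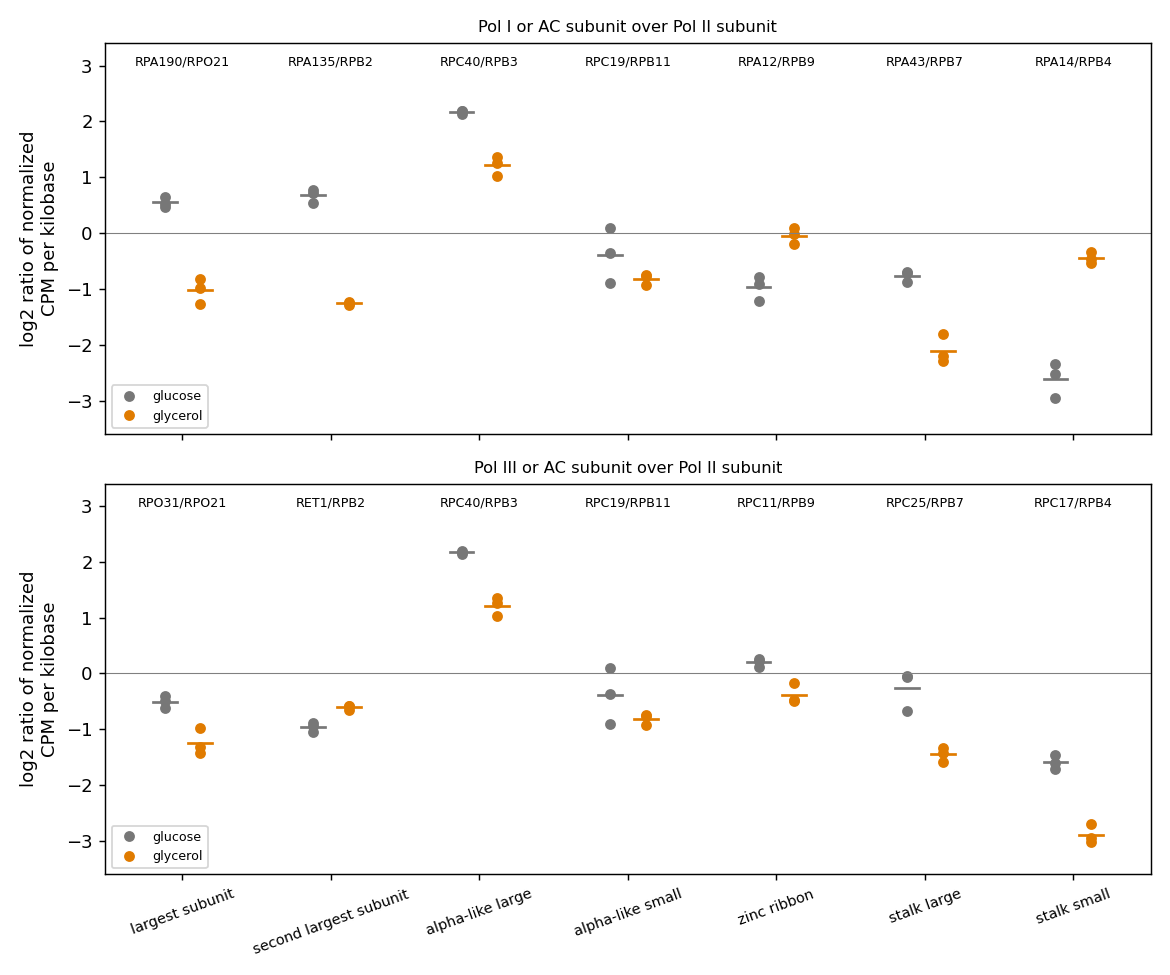
The log2 ratio of normalized CPM per kilobase between a Pol I, Pol III or AC subunit and the Pol II subunit at the same position, with points for the 3 glucose (grey) and 3 glycerol (orange) libraries and bars at their means. RPA190/RPO21 and RPA135/RPB2 cross 0 from glucose to glycerol, and RPA14/RPB4 rises from -2.61 to -0.44.

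The members differed widely in level per length. In glucose, RPB10 was the highest at 1376 ± 142 CPM per kilobase (SD, n = 3), followed by RPO26 at 1221 ± 134 and RPC10 at 869 ± 155, and RPO31 was the lowest at 31 ± 0.427. RPB10 and RPO26 differed by about their SD, and RPC82, next to the lowest, stood at 33.9 ± 1.29. The lengths used were 213 bases for RPB10, 468 for RPO26 and 213 for RPC10, but 4383 for RPO31. Whether gene length had a part in this order was not tested. In glycerol, RPB10 at 286 ± 10.9 and RPC10 at 283 ± 30.5 led and cannot be told apart, followed by RPB4 at 218 ± 11. By full gene length, RPC53 was the lowest at 17.6 ± 2.51 CPM per kilobase. BUD30 covers 43.9% of RPC53 on the opposite strand, and how reads in the overlap were counted is not stated. The level and the place of RPC53 are therefore uncertain. The largest shift in rank was that of RPA14, from place 26 of 31 in glucose to place 6 in glycerol. RPB2 moved from place 23 to place 10, RPA49 from 11 to 24 and RET1 from 28 to 16.

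The levels were closer together in glycerol. The highest member exceeded the lowest 39.4-fold to 47.1-fold in the glucose libraries and 14-fold to 20.2-fold in the glycerol libraries. On the log2 scale the SD over the 31 members was 1.43 to 1.59 in glucose and 1.02 to 1.13 in glycerol, and over all tested genes it was 2.34 to 2.39 and 1.95 to 1.98, so that all genes narrowed too. Across the 31 members, which share the libraries, the glucose and the glycerol level per kilobase correlated at r = 0.70 (Spearman's rho 0.67). By full gene length, the transcripts of AC40 and AC19, which are present in equal numbers in Pol I and Pol III, were 2.07-fold to 3.19-fold apart in the glucose libraries. They were 1.03-fold to 1.13-fold apart in the glycerol libraries. YNL114C covers 66.4% of RPC19, the gene of AC19, on the opposite strand, and how reads in the overlap were counted is not stated. The level of RPC19 per kilobase, and with it the distance between the pair, is therefore uncertain.

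**Figure D4:**
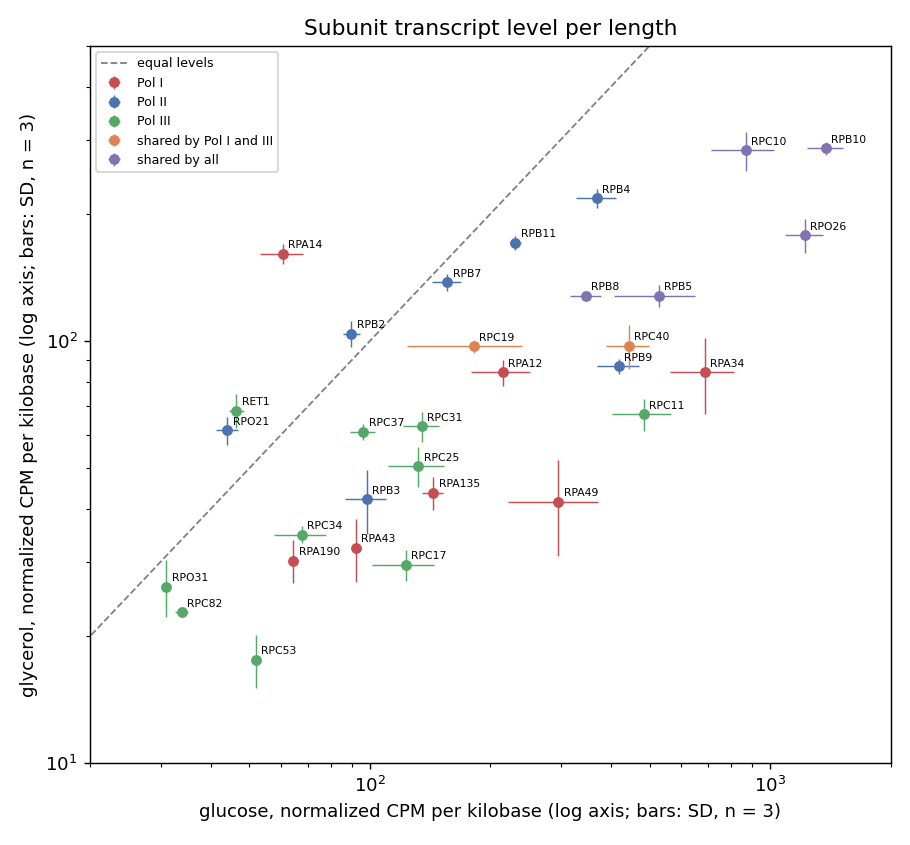
Level per length of each subunit transcript in glucose (x axis) and glycerol (y axis), in normalized CPM per kilobase on log axes, with SD bars over 3 libraries and a dashed line at equal levels. RPA14, RET1, RPO21 and RPB2 lie above the line and the other 27 members below it.

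The members were compared by gene length as well. The 6 members of 2000 bases or more, which are the catalytic pairs of the 3 enzymes, had a median log2 fold change of -0.01, while the 11 members under 500 bases had one of -1.62. Among all tested genes the medians were 0.33 for 1326 genes of 2000 bases or more and 0.17 for 1310 genes under 500 bases, and across all genes length and log2 fold change correlated at r = 0.01 (rho 0.09). Of the members, 10 of the 11 short ones and 4 of the 6 long ones lay below the median of all genes in their length range. In the range from 500 to 1000 bases, the median was -1.16 for 10 members and -0.35 for 1495 genes. The 4 members from 1000 to 2000 bases had a median of -1.87, lower than that of the shortest members, so the medians did not follow length throughout. Across the 31 members, length and log2 fold change correlated at r = 0.39 (rho 0.33). Whether length had a part in the order of the members was not tested.

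The members were also grouped by the promoter cores, as a description with no test. The 12 members with both cores had a median log2 fold change of -1.45 and ranged from -3.03 to 1.40, and the 10 members with neither had a median of -1.40 and ranged from -2.85 to -0.18. The 5 members with a PAC core alone had a median of -0.66, and the 4 with an RRPE core alone had one of -2.16. RPB2, at 0.21, is counted among those with a PAC core alone through a match in its coding region. Among Pol III genes the median was -0.81 for the 8 with a PAC core and -2.46 for the 2 without. Across all protein-coding genes tested, the 261 genes with both cores had a median of -1.22, with 214 of them lower at the threshold, and the 4653 genes with neither had a median of 0.14. The members with neither core included RPC11 and RPC17 of Pol III, RPB10, RPC10 and RPB8 of the shared class, RPA12 of Pol I, and RPB3, RPB4, RPB7 and RPB11 of Pol II. A match is a description of letters and not a bound site.

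**Figure D5:**
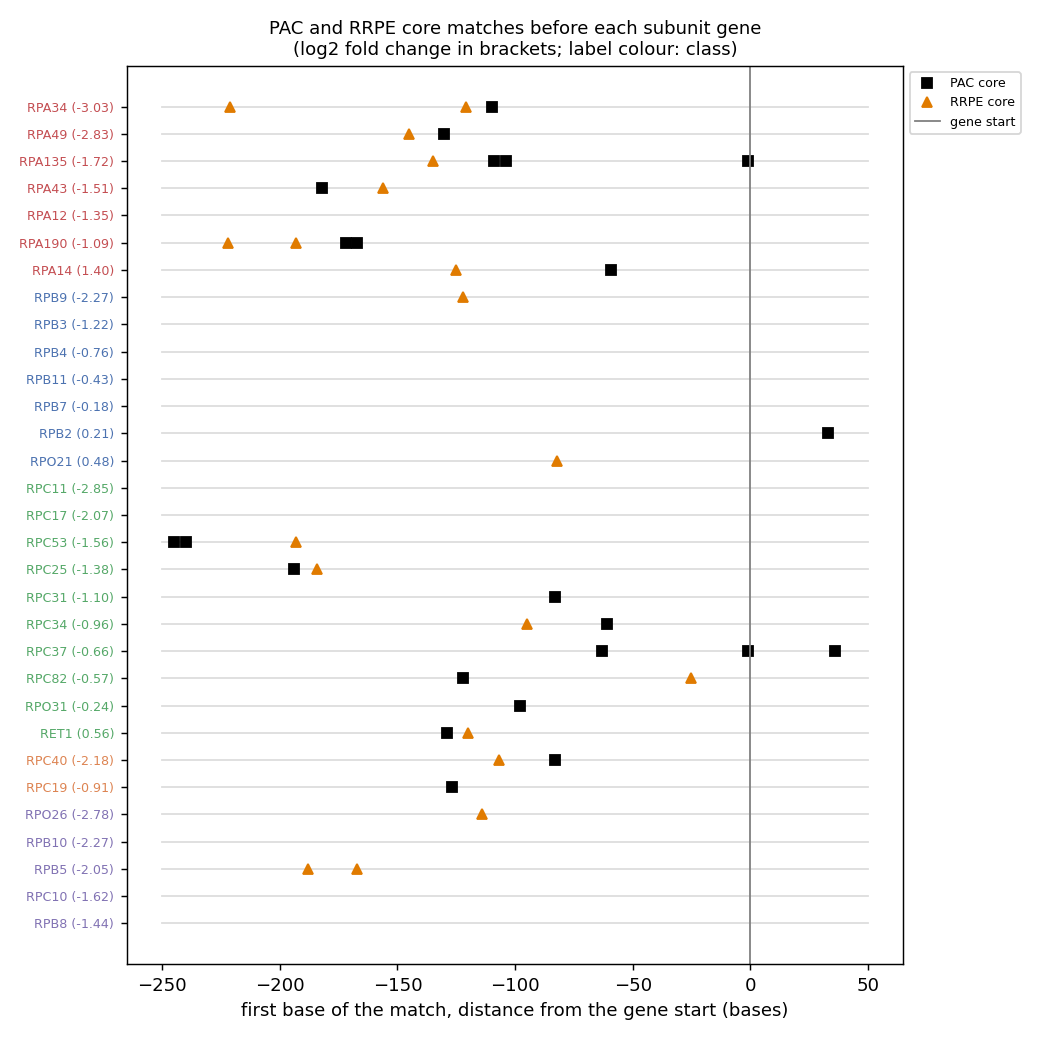
Positions of the PAC core (squares) and the RRPE core (triangles) from 250 bases before to 50 bases after the start of each subunit gene, given as the distance in bases of the first base of the match from the gene start, with the log2 fold change in brackets. Pol I genes (red labels) hold both cores in 6 of 7 cases, and genes shared by all (purple labels) hold no PAC core.

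The factors that bring the polymerases to their genes moved in both directions, and the counts below are to be read against the 40.1% of all tested genes that fell and the 41.7% that rose (26.1% and 57.0% with library totals alone). Of 9 Pol I initiation factors, 6 fell and 3 rose, with a median log2 fold change of -0.37 that turned to 0.13 with library totals alone. The highest was RRN6 of the core factor at 1.14 and the lowest RRN9 of the upstream activating factor at -1.37, and RRN3, whose product binds Pol I to make it competent for initiation, rose from 71.5 ± 5.15 to 90.8 ± 2.31 CPM (SD, n = 3 in each group). The count of falls is fragile, with 4 without glucose replicate 1, glycerol replicate 1 or glycerol replicate 2, and 2 with library totals alone. Of 9 Pol III initiation factors, 4 fell and 3 rose, from -1.22 for PZF1, which encodes TFIIIA, to 0.80 for TFC4 of TFIIIC. Of 18 Pol II general initiation factors, 8 fell and 4 rose, from -1.47 for SUA7, which encodes TFIIB, to 0.47 for CCL1 of TFIIH, whose libraries overlapped. The shares of Pol II and Pol III factors that fell were thus near that of all genes. Fewer of the Pol II factors rose, 4 of 18 against 41.7% of all genes, and 6 did not pass the test. With library totals alone, 1 Pol III factor fell and 5 rose, and 8 Pol II factors fell and 10 rose. SPT15, which encodes the TATA-binding protein used by all 3 enzymes, went from 98.3, 97.2 and 85.8 CPM in glucose to 60.9, 57.7 and 53.8 CPM in glycerol. Its log2 fold change was -0.71, and it was -0.21 with library totals alone and then not past the threshold.

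All 6 Pol II elongation factors on the list fell, from -1.44 for SPT4 to -0.25 for DST1, which encodes TFIIS, but DST1 passed the test in 1 of 6 fits with a library left out and was at 0.25 with library totals alone, where 2 of the 6 factors fell and the median of the list turned from -0.45 to 0.04. Of 8 factors for polymerase assembly and nuclear import, 4 rose and 3 fell, which is near the shares of all genes, and 5 rose and 1 fell with library totals alone. RTP1 rose by a log2 fold change of 1.04, from 51.9 ± 9.41 to 106 ± 9.09 CPM (SD, n = 3 in each group), and GPN3, which encodes a GTPase that takes part in Pol II assembly, fell by 1.66 on the log2 scale.

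Transcripts of the regulators of this regulon were mostly higher in glycerol. DOT6 and TOD6 encode repressors that bind PAC. DOT6 stood at 222, 252 and 276 CPM in glucose and at 402, 412 and 419.7 CPM in glycerol, and TOD6 at 45.6, 27.6 and 31.9 CPM in glucose and at 99.1, 69 and 81 CPM in glycerol. Their log2 fold changes were 0.72 and 1.25 (adjusted p = 2.1e-05 and 5.3e-06 from edgeR), and neither pair of groups overlapped. STB3, whose product binds RRPE, rose from 41.8 ± 3.94 to 90.9 ± 3.5 CPM (SD, n = 3 in each group), or 1.12. on the log2 scale SFP1, which encodes an activator of ribosome biogenesis genes, rose as well, from 54.6 ± 7.22 to 187 ± 24.5 CPM (SD, n = 3 in each group), or 1.78. on the log2 scale MAF1, which encodes the repressor of Pol III, stood at 146, 129 and 108 CPM in glucose and at 111, 109 and 85.3 CPM in glycerol, with overlapping groups. Its log2 fold change of -0.33 (adjusted p = 0.029 from edgeR) passed in 2 of 6 fits with a library left out and turned to 0.17 with library totals alone. These proteins are known to be controlled by phosphorylation and localization, which mRNA levels do not measure.

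RPO41, which encodes the separate mitochondrial RNA polymerase, rose from 64.6, 77.7 and 70.2 CPM in glucose to 166, 153 and 174 CPM in glycerol, a log2 fold change of 1.21 (adjusted p = 3.8e-08 from edgeR). The transcript of its specificity factor, MTF1, fell from 24.9 ± 3.99 to 13.4 ± 0.848 CPM (SD, n = 3 in each group), or -0.89. on the log2 scale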

How the data were processed

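Titles of the samples gave the groups and replicate numbers. The authors deposited, per the file headers, raw counts per gene for each library without normalization, together with FPKM values and columns of their own comparison (group means, fold changes and p-values). The comparison columns were not used. Per the labels, the submitters' processing notes name fastp 0.20.1, HISAT2 2.2.1, featureCounts 2.0.1, DESeq2 and the R64 build, without settings. The deposited FPKM equal counts per kilobase over a library size of 0.81 to 0.843 times the count total in glucose and 1.16 to 1.17 times in glycerol. No per-sample column was left unused.

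A gene was kept if 3 or more libraries held 10 or more of its counts, and libraries were scaled with TMM and tested with edgeR 4.0.16 (quasi-likelihood test, all 6 libraries, Benjamini-Hochberg adjustment over all tested genes, threshold 0.05) in R 4.3.3. Standard errors are the absolute log2 fold change over the square root of F. Alternatives were DESeq2 1.42.0, limma 3.58.1 on log2(FPKM + 1), other scalings, no filter, a replicate block and leaving out each library. The edgeR fit was tested on simulated counts in which few genes changed, about evenly in both directions, so that test does not bear on the choice of scaling. Class and context lists were drawn up from general knowledge, and RTP1, GPN2 and GPN3 were matched through RefSeq symbols. The members and lists were chosen with earlier results of these data known. Every member is named, with values per library for the catalytic pairs, the shared subunits and the extremes of each class, and from a context list the highest and the lowest fold change and every gene of lists of at most 5. RRN3 and the libraries of RPA43, RPA12 and RPB7 were added after their values were seen.

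Same-numbered libraries deviated together, if weakly, from their group means over the 5667 genes averaging 100 counts or more (r = 0.25, 0.105 and 0.289). The labels do not say what a number shares. Each of the correlations just given passed the planned limit for calling the libraries paired. The main fit was nonetheless unpaired, and a pairing by number entered only as the replicate block. With that block RPB2 and RPO31 passed the threshold as well. Over all tested genes the correlations were 0.171, 0.0592 and 0.197. Replicates differed by more than counting noise (chi-square per degree of freedom 16.1 to 62.2). All 31 members have the same start and end in RefSeq R64, from which promoter windows were read. Of 6149 windows, 6145 have ATG at the start. Figures were drawn with matplotlib 3.10.9.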

Additional observations from a re-analysis of the deposited data

How the results depend on the processing

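The 4 counts of genes and members were recomputed under 12 alternatives each, and 46 of these 48 values stayed within 1.5 times the main count. The exceptions came with library totals alone, that is no composition factor. Lower genes then numbered 1652 instead of 2539 (26.1% of those tested), and 5 members were higher in place of 3. Within that range under the same scaling, higher genes numbered 3605 instead of 2637 (57.0% of those tested), and 22 members were lower in place of 25. The distance of the members' median from that of all genes was -1.38 with TMM, with library totals alone and with totals that leave out ribosomal protein genes. A change of scaling shifts the log2 fold changes of all genes by nearly the same amount. This distance could therefore hardly move, and its agreement is no check of the result. Among the members and the other genes recomputed singly, directions turned with library totals alone for RPB7 at 0.31, RPB11 at 0.06, RPO31 at 0.26, MAF1 at 0.17 and DST1 at 0.25. List medians that turned were those of the Pol II subunits at 0.06 and of the initiation factors of Pol I at 0.13, Pol II at 0.32 and Pol III at 0.30, and of the elongation factors at 0.04, so further genes of these lists turned too. With each library left out in turn, 25 to 26 members fell and 3 to 4 rose. With the replicate block, 26 members fell and 4 rose, RPO31 and RPB2 being the additions, and no other member changed its call. In the 6330 tested genes, 2573 were lower and 2656 higher with the block. DESeq2, limma on the FPKM values and no filter each gave 25 lower and 3 higher members.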
